A study of Mus musculus with 14 samples.

Results

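The comparison set the bone marrow of young tumour-bearing mice against that of young cancer-free mice, across all genes. It used 6 of the study's 14 arrays, 3 from each group, chosen by the titles of the samples. Each array held RNA from bone marrow cells positive for Sca1 and negative for Kit. The cells came from female NCR-NU mice, an athymic nude strain, and were collected by flow cytometry. The cancer-free controls carried Matrigel, the basement membrane gel that is used to implant tumour cells, and the tumour-bearing mice carried primary tumours matched for size. The sources used here name neither the type of tumour nor the age of the animals beyond "young" or "old". The other 8 arrays came from old mice of the same sex and strain, 5 cancer-free and 3 tumour-bearing, and served to estimate the spread and to set the effect in young mice beside that in old mice. The labels call all samples biological replicates. Of 41345 probes, 23521 carried exactly 1 gene symbol. These stood for 22180 genes, each taken at the probe with the highest mean. Of these, 13805 genes were above the median of the whole table, 3.88 on the log2 scale, on at least 3 of the 14 arrays, and were tested.

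Sca1 is a surface protein of blood stem cells that many mature lymphoid cells of the mouse also carry, and Kit is the receptor for stem cell factor on stem and progenitor cells. Cells with Sca1 and without Kit are therefore a mixture, which can hold plasmacytoid dendritic cells, natural killer cells, T cells, innate lymphoid cells and B lineage cells. A tumour elsewhere in the body can change marrow through secreted cytokines and growth factors, which act on blood cell output and on the release of cells into the circulation. Nude mice lack a working thymus and so have few T cells, while their natural killer cells are present.

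The transcript of Ptprc, the common leukocyte antigen CD45, was at 10.70 to 10.97 on the log2 scale on the 6 arrays. This is a level well above the table's median on each of them, for a gene that nearly all marrow-derived white cells express. Kit itself, whose protein the sort selected against, read 6.11, 5.25 and 6.29 in cancer-free replicates 1 to 3 and 7.03, 6.73 and 6.10 in tumour-bearing replicates 1 to 3. All 6 values lie above the table's median, and the groups overlap. The gene that encodes Sca1, Ly6a, is not analysed here.

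The 6 arrays did not separate cleanly by group. In a principal component analysis over the genes tested, the first component held 38.2% of the variance and set tumour-bearing replicate 1, at 62.42, apart from the other 5 arrays, at -14.41 to -10.40. The second component held 21.6% and set apart tumour-bearing replicate 3, at -44.56. Tumour-bearing replicate 2 lay beside the cancer-free arrays. The mean correlation of an array with the other 13, across genes, was 0.899 for tumour-bearing replicate 1, the lowest of all 14, 0.935 and 0.921 for tumour-bearing replicates 2 and 3, and 0.929 to 0.942 in the cancer-free group. Against the cancer-free mean, 1494 genes lay at least 1 log2 unit away in tumour-bearing replicate 1, 384 in replicate 2 and 697 in replicate 3. The median SD within a group was 0.310 in the tumour-bearing mice and 0.226 in the cancer-free mice.

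**Figure D1:**
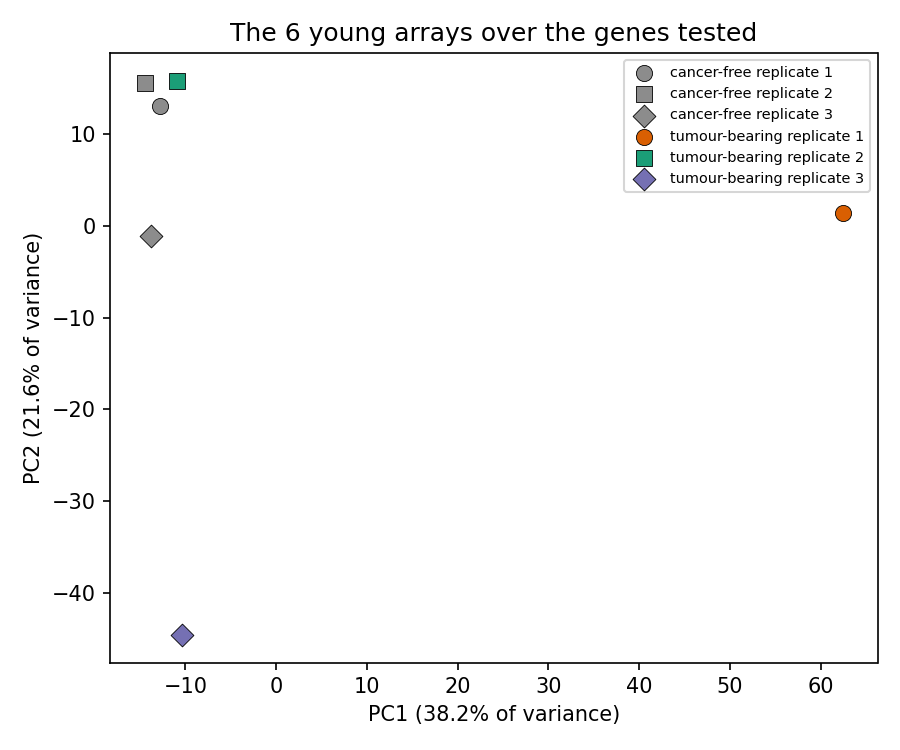
Principal components 1 and 2 of the 6 young arrays over the genes tested, with the share of the variance on each axis (component scores, no unit); grey points are cancer-free and coloured points tumour-bearing mice. Tumour-bearing replicate 1 stands alone at 62.42 on the first axis and tumour-bearing replicate 3 at -44.56 on the second.

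No gene differed between young tumour-bearing and young cancer-free mice after adjustment. By limma's moderated test with Benjamini-Hochberg adjustment, 0 of 13805 genes (0.00%) had an adjusted p under 0.05, and the smallest was 0.494. At an unadjusted p under 0.05 there were 745 genes (5.40%), against 690.25 that a uniform distribution of p would give. Of these, 290 (2.10% of the genes tested) were higher and 455 (3.30%) were lower in the tumour-bearing mice. With each array centred on its own median the split was 202 higher and 604 lower. Over all genes tested, 6518 had a positive and 7287 a negative difference, with a median of -0.022. The 3 tumour-bearing values lay wholly above or wholly below the 3 cancer-free values for 1785 genes (12.9%), above for 768 (5.56%) and below for 1017 (7.37%). Differences of at least 1 log2 unit in size were found for 227 genes, 41 higher and 186 lower, and 126 of these had an unadjusted p under 0.05. The typical gene had a standard error of 0.274, so its 95% confidence interval, before any adjustment, reached 0.588 log2 units to either side. Smaller differences could not be resolved for such a gene with 3 arrays in each group. After adjustment, none of the 227 differences of at least 1 log2 unit passed either.

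The sign of the difference moved with the brightness of the gene. In the dimmest quartile of the genes, with mean levels of 2.46 to 4.29, the median difference was 0.100, and 139 genes were higher and 61 lower at an unadjusted p under 0.05 in limma. In the brightest quartile, 6.51 to 13.6, the median was -0.120, with 19 genes higher and 144 lower. Tumour-bearing replicate 1 had the widest such slope, from 0.136 in the dimmest to -0.182 in the brightest quartile. Replicate 2 went from 0.048 to -0.053 and replicate 3 from 0.084 to -0.090. In old mice the quartiles ran the same way, from 0.092 to -0.083. Cyclic loess between arrays reduced the young values to 0.022 and -0.007, and left 306 genes higher and 349 lower. The part of this slope in any single gene's value was not tested.

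**Figure D2:**
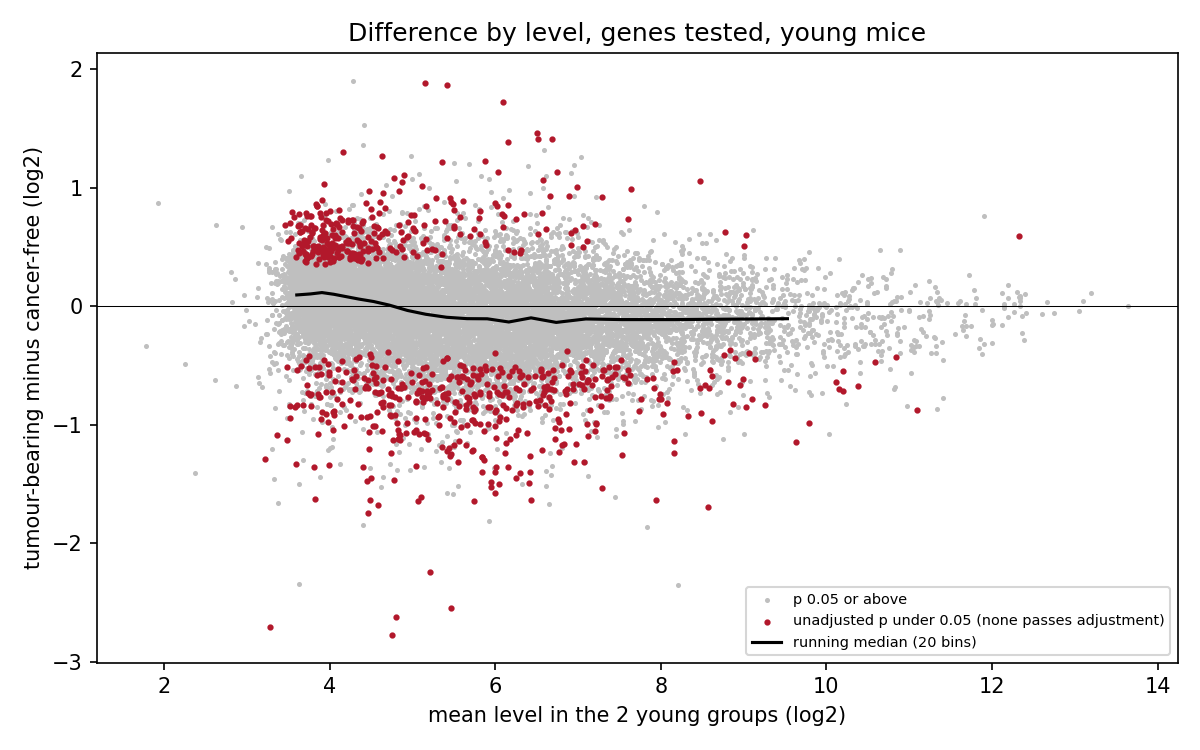
Difference between young tumour-bearing and young cancer-free mice (vertical axis, log2) against the mean level of the 2 groups (horizontal axis, log2) for the 13805 genes tested, with red points for an unadjusted p under 0.05 and a black line for the running median. The line lies above 0 among dim genes and below it among bright genes, and the red points below 0 outnumber those above, 455 to 290.

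The genes with the smallest p are given as leads that did not pass adjustment. Kbtbd2, a substrate adaptor of a cullin ubiquitin ligase, came first. Its level was 5.34, 5.59 and 5.60 in the cancer-free mice and 4.63, 4.51 and 4.56 in the tumour-bearing mice. The 2 sets did not overlap, and the difference was -0.94 (SE 0.16, limma adjusted p = 0.494). In old mice the difference was -0.09 (SE 0.14).

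Klk8, which codes for a secreted serine protease of the kallikrein family, was at 7.19, 7.71 and 6.87 in cancer-free mice and at 5.04, 6.09 and 5.73 in tumour-bearing mice. Every tumour-bearing value was below every cancer-free value, with a difference of -1.63 (SE 0.33, limma adjusted p = 0.886). The old mice had the opposite sign, 0.47 (SE 0.30), and the difference between the ages had an unadjusted p of 0.00032 in limma and an adjusted p of 0.736. Ccnq, the cyclin partner of the kinase CDK10, read 8.68, 8.68 and 8.91 against 6.09, 7.76 and 7.51, a difference of -1.63 (SE 0.39). That size depends on the probe chosen, since the mean of the gene's probes gave -0.95. Rcn1, a calcium-binding protein of the endoplasmic reticulum, read 6.94, 6.91 and 6.55 against 5.95, 5.38 and 4.57, a difference of -1.50 (SE 0.36). For both genes all 3 tumour-bearing values lay below the cancer-free range.

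Clec2i belongs to the C-type lectins that serve as ligands of natural killer cell receptors. It was at 7.37, 7.11 and 6.88 in cancer-free mice and at 4.86, 6.04 and 6.28 in tumour-bearing mice, a difference of -1.40 (SE 0.33). Tumour-bearing replicate 1 was the lowest and the groups did not overlap. The old mice had a difference of -0.71 (SE 0.29). Slc35a5, of the nucleotide sugar transporter family, read 6.32, 6.56 and 6.54 against 5.53, 5.08 and 4.99, a difference of -1.27 (SE 0.29). Zfp60, a zinc finger protein, differed by -1.13 (SE 0.28) and Ing5, a chromatin-binding subunit of histone acetyltransferase complexes, by -1.11 (SE 0.30). Opa1, the GTPase that fuses inner mitochondrial membranes, differed by -0.84 (SE 0.20). Decr1, an enzyme of mitochondrial fatty acid oxidation, differed by -0.66 (SE 0.17). These 4 also had no overlap between the groups, and limma's adjusted p was 0.886 for each gene named here after Kbtbd2.

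Among genes with a positive difference, Parvb had the smallest p. It codes for beta-parvin, an adaptor at integrin adhesions. Its level was 5.38, 5.76 and 4.58 in cancer-free mice and 7.22, 6.45 and 7.21 in tumour-bearing mice, a difference of 1.72 (SE 0.36, limma adjusted p = 0.886). The lowest tumour-bearing value was above the highest cancer-free value, and old mice had a difference of 0.47 (SE 0.32). Themis2, a signalling adaptor of B cells and macrophages, read 7.23, 7.07 and 7.14 against 8.02, 7.92 and 8.48. The cancer-free values lay close together, all below the tumour-bearing values, and the difference was 0.99 (SE 0.26).

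Lgmn, the lysosomal protease legumain, had the same difference at both ages. In young mice it read 6.48, 5.90 and 6.21 against 7.47, 6.98 and 6.92, a difference of 0.93 (SE 0.24). In old mice, whose means share no array with the young means, it was 0.93 (SE 0.22), and neither passed adjustment in limma (adjusted p = 0.886 and 0.223). Ltbr, the lymphotoxin beta receptor, read 5.63, 4.90 and 5.88 against 7.12, 6.19 and 6.48, a difference of 1.13 (SE 0.31) beside 0.83 (SE 0.28) in old mice. Ndufa4l2, a mitochondrial protein known as a target of hypoxia-inducible factor, read 3.73, 4.96 and 3.96 against 6.52, 6.06 and 5.70. Its difference was 1.88 (SE 0.55), with 2 cancer-free values close to the table's median, and in old mice it was 0.98 (SE 0.49).

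Mapk11, the beta isoform of the p38 stress kinase, differed by 1.08 (SE 0.29) and Adgrg1, an adhesion G protein-coupled receptor, by 1.05 (SE 0.27). Mapk11 did not overlap between the groups. Adgrg1 did, with 4.39, 3.73 and 4.92 in cancer-free mice against 5.71, 4.90 and 5.59. Ypel2 read 6.07, 5.80 and 5.56 against 8.01, 7.44 and 6.21, a difference of 1.41 (SE 0.42). The smaller differences were 0.70 (SE 0.18) for the synaptotagmin Syt12, 0.64 (SE 0.17) for Abhd15, 0.77 (SE 0.21) for Ctrcos and 0.67 (SE 0.18) for the mitochondrial glutamate carrier Slc25a22. In cancer-free mice Syt12 read 4.24, 3.98 and 3.90 and Slc25a22 read 3.98, 3.97 and 3.89. These values are close to the table's median, as is the lowest cancer-free value of Mapk11, 3.90. Rlf, a zinc finger protein, differed by 0.78 (SE 0.21). On the lower side, the endosomal recycling genes Ehd3 and Rab4a differed by -1.64 (SE 0.51) and -1.46 (SE 0.48).

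**Figure D3:**
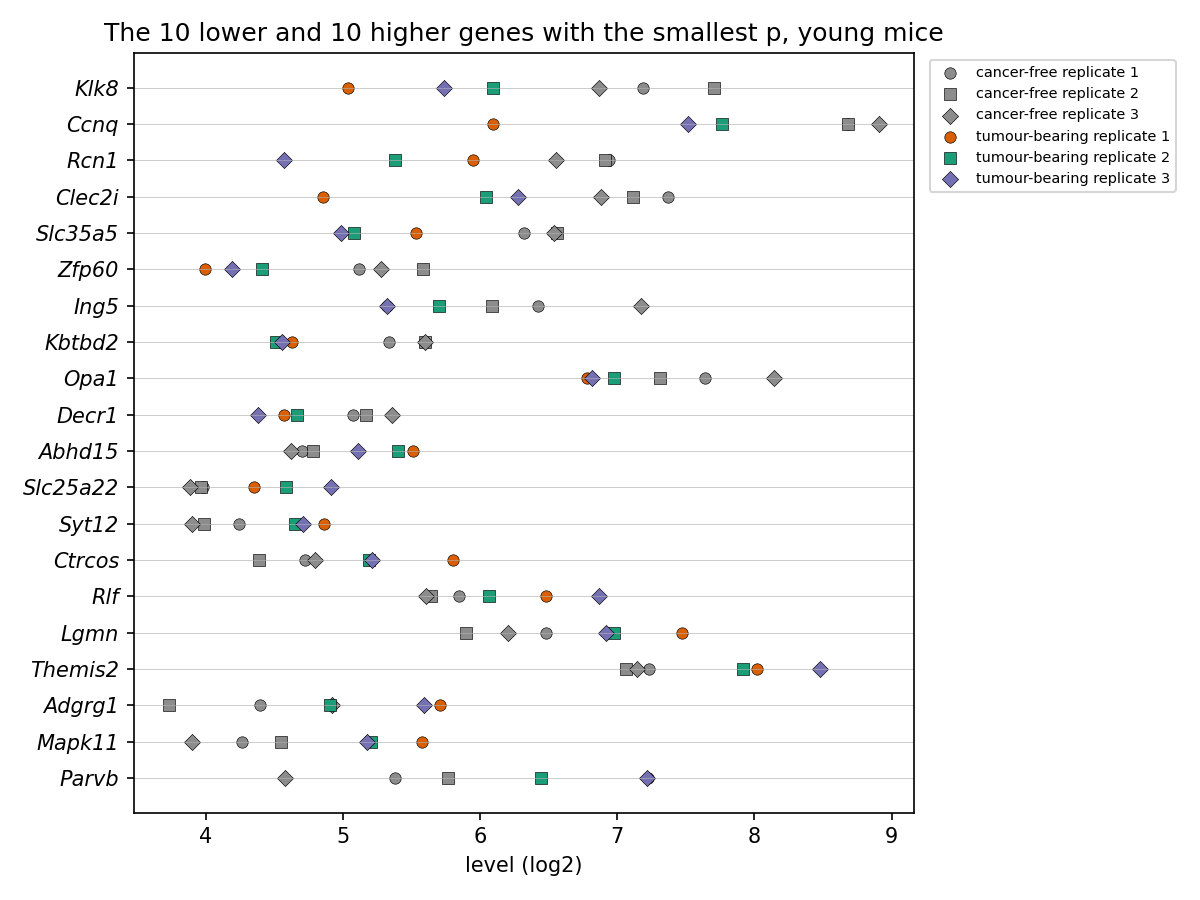
Levels (horizontal axis, log2) on each of the 6 young arrays of the 10 lower and the 10 higher genes with the smallest p, ordered by difference; grey points are cancer-free and coloured points tumour-bearing mice. Kbtbd2 has all 3 tumour-bearing values between 4.51 and 4.63, below its cancer-free values, and in Adgrg1 the groups overlap.

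The same contrast in old mice was taken from the same fit. Its means came from other arrays, but each gene's spread was shared with the young contrast. It also had no gene past adjustment in limma, with 0 called (0.00%) and a smallest adjusted p of 0.0801. At an unadjusted p under 0.05 in limma there were 1348 genes (9.76%), 580 higher (4.20%) and 768 lower (5.56%). The difference of the tumour effects, young minus old, had 0 called (0.00%), a smallest adjusted p of 0.736 and 610 genes (4.42%) at an unadjusted p under 0.05, 255 higher (1.85%) and 355 lower (2.57%). Across the 13805 genes, the young and the old differences had a Pearson correlation of 0.192 and a Spearman correlation of 0.193. These describe genes that share arrays and a slope with brightness, and are no test. The young contrast had 745 genes at an unadjusted p under 0.05 in limma. Of these, 502 (67.4%) had the same sign in old mice, against 57.8% of all genes tested. Of the 745, 106 were also under 0.05 in old mice, beside 9.76% of all genes tested, and 87 of the 106 had the same sign. Both p use the same spread for each gene, so the 2 sets of genes are not independent.

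The genes were then read through 37 lists of cell type markers and pathways, and no member of any list passed adjustment in limma. Markers of T cells had the lowest median difference. These were 15 genes tested of 19 listed, among them the chains of the CD3 complex, which carries the signal of the T cell receptor. Of these, 13 were lower and 2 higher in tumour-bearing mice, with a median of -0.81, beside -0.022 over all genes tested. At an unadjusted p under 0.05 in limma there were 4 lower and 0 higher, beside 3.30% lower and 2.10% higher over all genes, and for 3 of the 15 all tumour-bearing values lay below all cancer-free values, beside 7.37% of all genes. In old mice the median was -0.074, with 9 lower and 6 higher. In bulk RNA, fewer cells of a type and less RNA per cell cannot be told apart.

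Cd3d, the delta chain of CD3, read 9.16, 9.81 and 9.29 in cancer-free mice and 6.07, 9.09 and 8.04 in tumour-bearing mice. Tumour-bearing replicate 1 was more than 1 log2 unit below the other two, and replicate 2 was just below the cancer-free range. The difference was -1.69 (SE 0.57, limma adjusted p = 0.886), or -0.86 without tumour-bearing replicate 1. Cd3e, the epsilon chain, read 10.26, 10.80 and 9.78 against 9.30, 9.90 and 8.69, a difference of -0.99 (SE 0.37), and its groups overlap. Cd27, a costimulatory receptor of T and natural killer cells, read 7.56, 7.79 and 7.32 against 5.37, 6.58 and 7.25. Its difference was -1.16 (SE 0.43), or -0.65 without tumour-bearing replicate 1. Cd6, a T cell adhesion receptor, read 6.66, 7.19 and 5.99 against 5.79, 5.97 and 5.21, a difference of -0.95 (SE 0.42). These are the 4 members with the smallest p. Other members differed less, with Cd4 at -0.03 (SE 0.40) and Cd28 at -0.13 (SE 0.21). The 2 higher members were Lat, at 0.39 (SE 0.35), and Ctla4, at 0.39 (SE 0.47).

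The arrays did not contribute alike to the T cell list. Its median against the cancer-free mean was -0.79, -0.33 and -1.01 in tumour-bearing replicates 1 to 3. In the cancer-free mice it was 0.03, 0.39 and -0.37, so cancer-free replicate 3 was at about the place of tumour-bearing replicate 2. Leaving out cancer-free replicate 2 gave a median difference of -0.51 with 1 member at an unadjusted p under 0.05, and leaving out tumour-bearing replicate 3 gave -0.53. Leaving out tumour-bearing replicate 2 gave -1.01 with 7 members, and leaving out cancer-free replicate 3 gave -1.01 with 8. Without tumour-bearing replicate 1 or 3 there were 2 each. With cyclic loess the median was -0.70. Of the 15 members, 9 were in the brightest quartile of genes, where the median over all genes was -0.120.

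Markers of natural killer cells, the innate lymphocytes that kill tumour and infected cells, also had negative differences. All but 1 of 15 genes tested (17 listed) were lower, and the median difference was -0.47. At an unadjusted p under 0.05 in limma, 2 members were lower and 0 higher, beside 3.30% and 2.10% of all genes. In 5 of the 15 all tumour-bearing values lay below all cancer-free values, against 7.37% of all genes. In old mice, whose means share no array with the young means, the list had 14 lower and 1 higher with a median of -0.55.

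The 250 bases before the RefSeq transcription start (build GRCm38.p6) are shown for 1 T cell and 3 natural killer cell genes whose levels are described here, as examples of the control regions of the 2 lists with the lowest medians. Promoters of these cells are known to hold sites for RUNX, ETS, E protein and GATA factors. Capitals mark a match on either strand to the letters searched for each of these. The letters for RUNX factors were TGTGGT, and those for ETS factors CAGGAAGT. For E proteins, the basic helix-loop-helix factors that bind E-boxes, the search used CAGCTG. The zinc finger proteins of the GATA family were given the letters AGATAA. No motif contains another, and each sequence runs 5′ to 3′ on the strand of its gene.
Cd3d, chr9:44981536-44981785, plus strand: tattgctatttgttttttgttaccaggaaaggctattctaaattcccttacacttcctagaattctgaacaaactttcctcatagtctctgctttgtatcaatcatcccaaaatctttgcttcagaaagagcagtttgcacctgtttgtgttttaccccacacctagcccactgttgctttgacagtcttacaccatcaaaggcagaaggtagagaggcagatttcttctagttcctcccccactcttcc
Tbx21, chr11:97115332-97115581, minus strand: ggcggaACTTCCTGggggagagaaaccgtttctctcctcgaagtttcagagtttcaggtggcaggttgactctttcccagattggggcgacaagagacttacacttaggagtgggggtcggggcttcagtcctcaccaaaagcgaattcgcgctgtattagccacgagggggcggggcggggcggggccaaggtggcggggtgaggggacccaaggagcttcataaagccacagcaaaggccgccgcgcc
Klrc1, chr6:129678974-129679223, minus strand: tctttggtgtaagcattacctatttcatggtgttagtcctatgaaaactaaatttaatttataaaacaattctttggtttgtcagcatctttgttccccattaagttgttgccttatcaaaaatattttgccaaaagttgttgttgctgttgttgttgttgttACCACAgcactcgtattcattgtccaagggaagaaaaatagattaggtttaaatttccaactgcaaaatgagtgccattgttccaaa
Ncr1, chr7:4337465-4337714, plus strand: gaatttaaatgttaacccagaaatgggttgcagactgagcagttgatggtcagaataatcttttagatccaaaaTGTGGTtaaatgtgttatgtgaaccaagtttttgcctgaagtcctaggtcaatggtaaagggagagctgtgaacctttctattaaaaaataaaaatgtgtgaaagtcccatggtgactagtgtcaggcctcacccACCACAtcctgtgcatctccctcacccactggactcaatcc
Tbx21 had an ETS match from -244 to -237 relative to the start, Klrc1 a RUNX match from -87 to -82, and Ncr1 RUNX matches from -176 to -171 and from -41 to -36. Cd3d had none of these letters. The RUNX letters were in 8 of the 12 natural killer cell members with an entry and in 0 of the 10 T cell members with one, while 14.05% of 32851 mouse promoters of this length held them. The ETS letters were in 3 of the 12 and in 1 of the 10, against 2.691% of promoters. The E-box letters were in 1 of the 12 and 0 of the 10, against 13.0% of promoters, and the GATA letters in 0 of the 12 and 1 of the 10, against 9.988%. Several of these genes are near relatives in 1 gene cluster, so their promoters are not independent, and a match of letters is a description of the sequence.

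Tbx21, which codes for the transcription factor T-bet of natural killer and type 1 T cells, read 7.32, 7.97 and 7.89 in cancer-free mice and 6.92, 7.05 and 7.21 in tumour-bearing mice. The 3 tumour-bearing values were close together and all below the cancer-free range, with a difference of -0.67 (SE 0.25, limma adjusted p = 0.886). In old mice it was -0.08 (SE 0.22). Klrc1, the receptor chain NKG2A, read 9.96, 10.08 and 10.59 against 7.96, 9.55 and 9.67. Its difference was -1.15 (SE 0.45), or -0.60 without tumour-bearing replicate 1, and in old mice -0.60 (SE 0.40). Ncr1, the activating receptor NKp46, read 9.10, 9.28 and 9.73 against 7.63, 8.87 and 9.36. It differed by -0.75 (SE 0.40), or -0.25 without tumour-bearing replicate 1, and by -0.90 (SE 0.36) in old mice. The chemokine gene Ccl5 read 11.94, 12.15 and 11.96 against 11.39, 11.78 and 11.82, a difference of -0.35 (SE 0.20), or -0.22 without that array.

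The list as a whole followed tumour-bearing replicate 1. Its median against the cancer-free mean was -1.12 in tumour-bearing replicate 1, -0.23 in replicate 2 and -0.20 in replicate 3. In cancer-free mice it was -0.21, 0.08 and 0.08. Without tumour-bearing replicate 1 the median difference was -0.18, with 13 lower, 2 higher and 0 at an unadjusted p under 0.05. Leaving out cancer-free replicate 3 gave -0.47 with 0 at that threshold, leaving out cancer-free replicate 2 gave 1, and leaving out tumour-bearing replicate 2 gave 4. Of the 15 members, 12 were in the brightest quartile of genes, and cyclic loess gave a median of -0.36. On tumour-bearing replicate 1 the 18 neutrophil markers stood 0.82 above the cancer-free mean and the T cell markers were at -0.79. The part of such a mixture, and of that array's low correlation with the others, in the natural killer cell values was not tested.

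**Figure D4:**
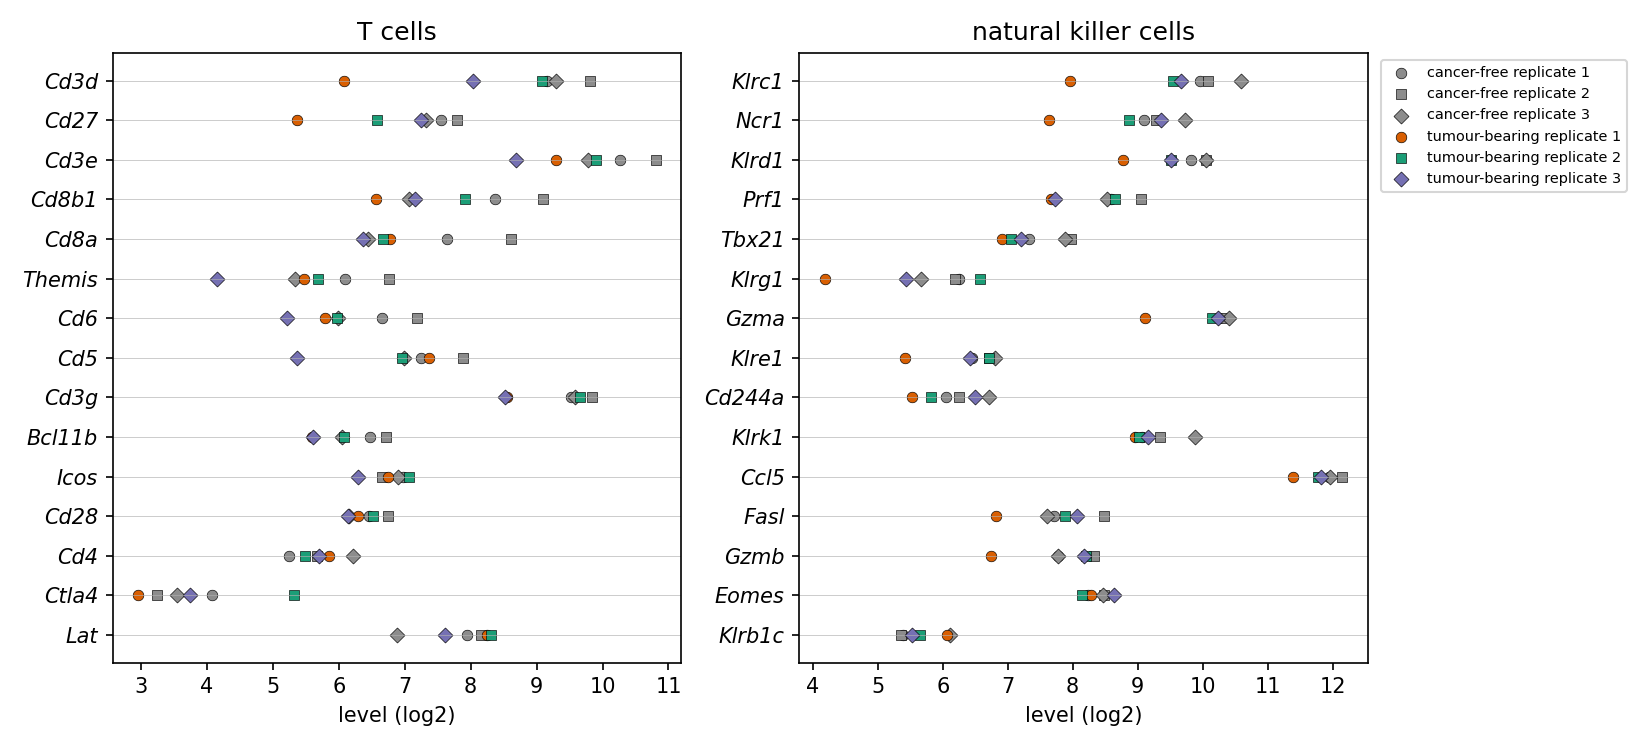
Levels (horizontal axis, log2) on each of the 6 young arrays of the 15 T cell and the 15 natural killer cell markers tested, ordered by difference within each panel; grey points are cancer-free and coloured points tumour-bearing mice. Tumour-bearing replicate 1 (orange) is the lowest point for Cd3d at 6.07 and for Klrc1 at 7.96, and tumour-bearing replicate 2 (green) mostly lies near the grey points.

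The next list joined lymphoid cytokine receptor chains with the STAT and SOCS families, which carry cytokine signals from membrane to nucleus or restrain them. Of 27 genes, 21 were lower and 6 higher, the median was -0.27, and 2 were lower and 0 higher at an unadjusted p under 0.05, beside 3.30% and 2.10% of all genes. With cyclic loess the median was -0.16, with 19 lower, 8 higher and 1 lower at that threshold. Il12rb1, a chain of the receptors for interleukins 12 and 23, read 5.23, 5.15 and 5.57 in cancer-free mice and 4.76, 4.64 and 4.63 in tumour-bearing mice. The difference was -0.64 (SE 0.26). Stat4, which acts downstream of interleukin 12, read 8.610, 9.001 and 8.862 against 7.71, 8.59 and 8.10, a difference of -0.69 (SE 0.30). Neither gene's groups overlap, and neither passed adjustment in limma (adjusted p = 0.886). The list median was close to even over the arrays, at -0.25, -0.23 and -0.34 in tumour-bearing replicates 1 to 3 and -0.09 to 0.06 in the cancer-free mice. It was -0.19 without tumour-bearing replicate 1, and -0.21 in old mice.

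Chemokine ligands and receptors, which guide leukocytes, had 17 of 27 lower, with a median of -0.084, or -0.21 without cancer-free replicate 1 and -0.15 without tumour-bearing replicate 2. At an unadjusted p under 0.05 were 2 receptors of activated lymphocytes, beside 3.30% of all genes lower. Cxcr6 read 8.46, 8.57 and 7.52 against 7.33, 7.38 and 7.19, and Cxcr3 read 8.37, 8.40 and 8.61 against 8.21, 7.73 and 7.83. Their differences were -0.89 (SE 0.32) and -0.54 (SE 0.23), and in both all tumour-bearing values lay below all cancer-free values. Integrins and adhesion genes had 16 of 20 lower with a median of -0.23. Itgb3, the beta chain of the platelet fibrinogen receptor, read 5.80, 6.11 and 5.76 against 5.24, 5.64 and 5.02. It differed by -0.59 (SE 0.23) in young mice and by -0.61 (SE 0.21) in old mice. Itgam, the integrin chain CD11b, differed by -0.50 (SE 0.23), or -0.24 without tumour-bearing replicate 2.

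Interferon gamma, made by natural killer and T cells, switches on guanylate-binding proteins and chemokines. Of 12 genes of this response, 10 were lower and 0 passed an unadjusted p of 0.05. The median was -0.37, and -0.18 without cancer-free replicate 3. Cxcl9, a chemokine induced by interferon gamma, read 6.18, 6.99 and 8.78 against 5.63, 5.93 and 6.22, so cancer-free replicate 3 stood high, and the difference of -1.39 (SE 0.66) became -0.66 without it. Irf1, a transcription factor of the response, differed by -0.55 (SE 0.29), or -0.29 without tumour-bearing replicate 1. Type I interferon-stimulated genes had 15 of 19 lower with a median of -0.17 and 0 at an unadjusted p under 0.05. The median was -0.12 without tumour-bearing replicate 1, -0.39 without tumour-bearing replicate 2, and -0.28 without cancer-free replicate 2 or 3. Xaf1 among them differed by -1.05 (SE 0.54), or -0.61 without tumour-bearing replicate 1. Group 2 innate lymphoid cell genes had 8 of 10 lower and a median of -0.31, with 0 at that threshold. The median was -0.13 without cancer-free replicate 1 and -0.18 without tumour-bearing replicate 1. Gata3, their lineage factor, read 7.47, 7.50 and 6.96 against 7.42, 6.39 and 6.54, so tumour-bearing replicate 1 lay within the cancer-free range. Its difference was -0.53 (SE 0.27), or -0.84 without tumour-bearing replicate 1 and -0.33 without replicate 2. The 2 higher members were the cytokine gene Il13, at 0.38 (SE 0.21), and Rora, at 0.18 (SE 0.25). Of the lower members, Icos is also in the T cell list and Klrg1 in the natural killer cell list.

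Stem and progenitor genes were 5 higher and 4 lower of 9 tested (15 listed), with a median of 0.12. At an unadjusted p under 0.05, 3 were higher and 0 lower, beside 2.10% higher and 3.30% lower over all genes. Procr, a surface receptor of blood stem cells, read 4.30, 4.25 and 4.63 against 4.14, 4.20 and 3.87, with every tumour-bearing value below every cancer-free value and a difference of -0.32 (SE 0.20). Flt3, the receptor of early lymphoid and dendritic cell progenitors, read 5.34, 4.75 and 5.71 in cancer-free mice and 5.56, 6.99 and 6.92 in tumour-bearing mice. Replicates 2 and 3 stood above the cancer-free range and replicate 1 within it, and the difference was 1.22 (SE 0.46, limma adjusted p = 0.886). Kit differed by 0.74 (SE 0.30), or 0.42 without cancer-free replicate 2, and by 0.50 (SE 0.27) in old mice. Erg, a transcription factor of stem cells, read 3.54, 3.77 and 3.38 against 4.90, 3.52 and 4.64. Its cancer-free values were below the table's median, so its difference of 0.79 (SE 0.33) is not a reliable size, and it was 0.52 without tumour-bearing replicate 1. The list's median turned to -0.13 without tumour-bearing replicate 3, in which it was 0.52 above the cancer-free mean. It was 0.44 without tumour-bearing replicate 1, 0.22 without cancer-free replicate 1 and 0.22 with cyclic loess. With only the groups compared in the fit, 1 member was higher at that threshold.

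Myeloid markers had no shared direction. Neutrophil genes had 11 of 18 higher, a median of 0.081 and 0 at an unadjusted p under 0.05. Tumour-bearing replicate 1 was 0.82 above the cancer-free mean on this list, replicates 2 and 3 were at -0.19 and -0.27, and the median was -0.20 without replicate 1, 0.26 without replicate 2 or cancer-free replicate 2, and 0.38 without tumour-bearing replicate 3. Mpo, the granule enzyme myeloperoxidase, read 7.02, 6.14 and 6.07 against 8.36, 6.98 and 7.65, a difference of 1.25 (SE 0.58). Cxcr2, a neutrophil chemokine receptor, was at 7.89 in tumour-bearing replicate 1 and at 4.93 to 6.19 on the other 5 arrays. Ly6g, a neutrophil surface marker, had the lowest difference of the list, -1.19 (SE 0.82). It read 4.83, 5.31 and 3.71 against 2.71, 3.415 and 4.16, in part below the table's median. Monocyte and macrophage genes were 6 higher and 6 lower. At an unadjusted p under 0.05 in limma, 2 were lower, Ms4a6c and Itgam, and 0 higher, beside 3.30% and 2.10% of all genes. With cyclic loess 1 was lower. All tumour-bearing values lay above all cancer-free values in 2 members, Cybb and C1qa, and below them in 2, Ms4a6c and Itgam. These shares were 5.56% and 7.37% of all genes. Cybb differed by 0.46 (SE 0.28) and C1qa by 0.25 (SE 0.20). Ms4a6c read 9.09, 9.29 and 9.46 against 7.75, 8.87 and 8.74, a difference of -0.83 (SE 0.27), or -0.48 without tumour-bearing replicate 1.

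Plasmacytoid dendritic cells, the main producers of type I interferon, had 10 of 17 marker genes higher, a median of 0.089 and 0 at an unadjusted p under 0.05. Their median was 0.58 above the cancer-free mean in tumour-bearing replicate 3, and -0.29 and -0.24 in replicates 1 and 2. It was -0.47 to 0.36 in the cancer-free mice. The median of the list ran from -0.20 without tumour-bearing replicate 3 and -0.13 without cancer-free replicate 2 to 0.30 without cancer-free replicate 3, and was 0.21 with cyclic loess. Cd300c read 5.70, 5.58 and 6.50 against 6.75, 6.11 and 8.87, a difference of 1.32 (SE 0.64), or 0.50 without tumour-bearing replicate 3. Tlr7, a sensor of viral RNA, differed by -0.79 (SE 0.38), or -0.39 without tumour-bearing replicate 1.

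**Figure D5:**
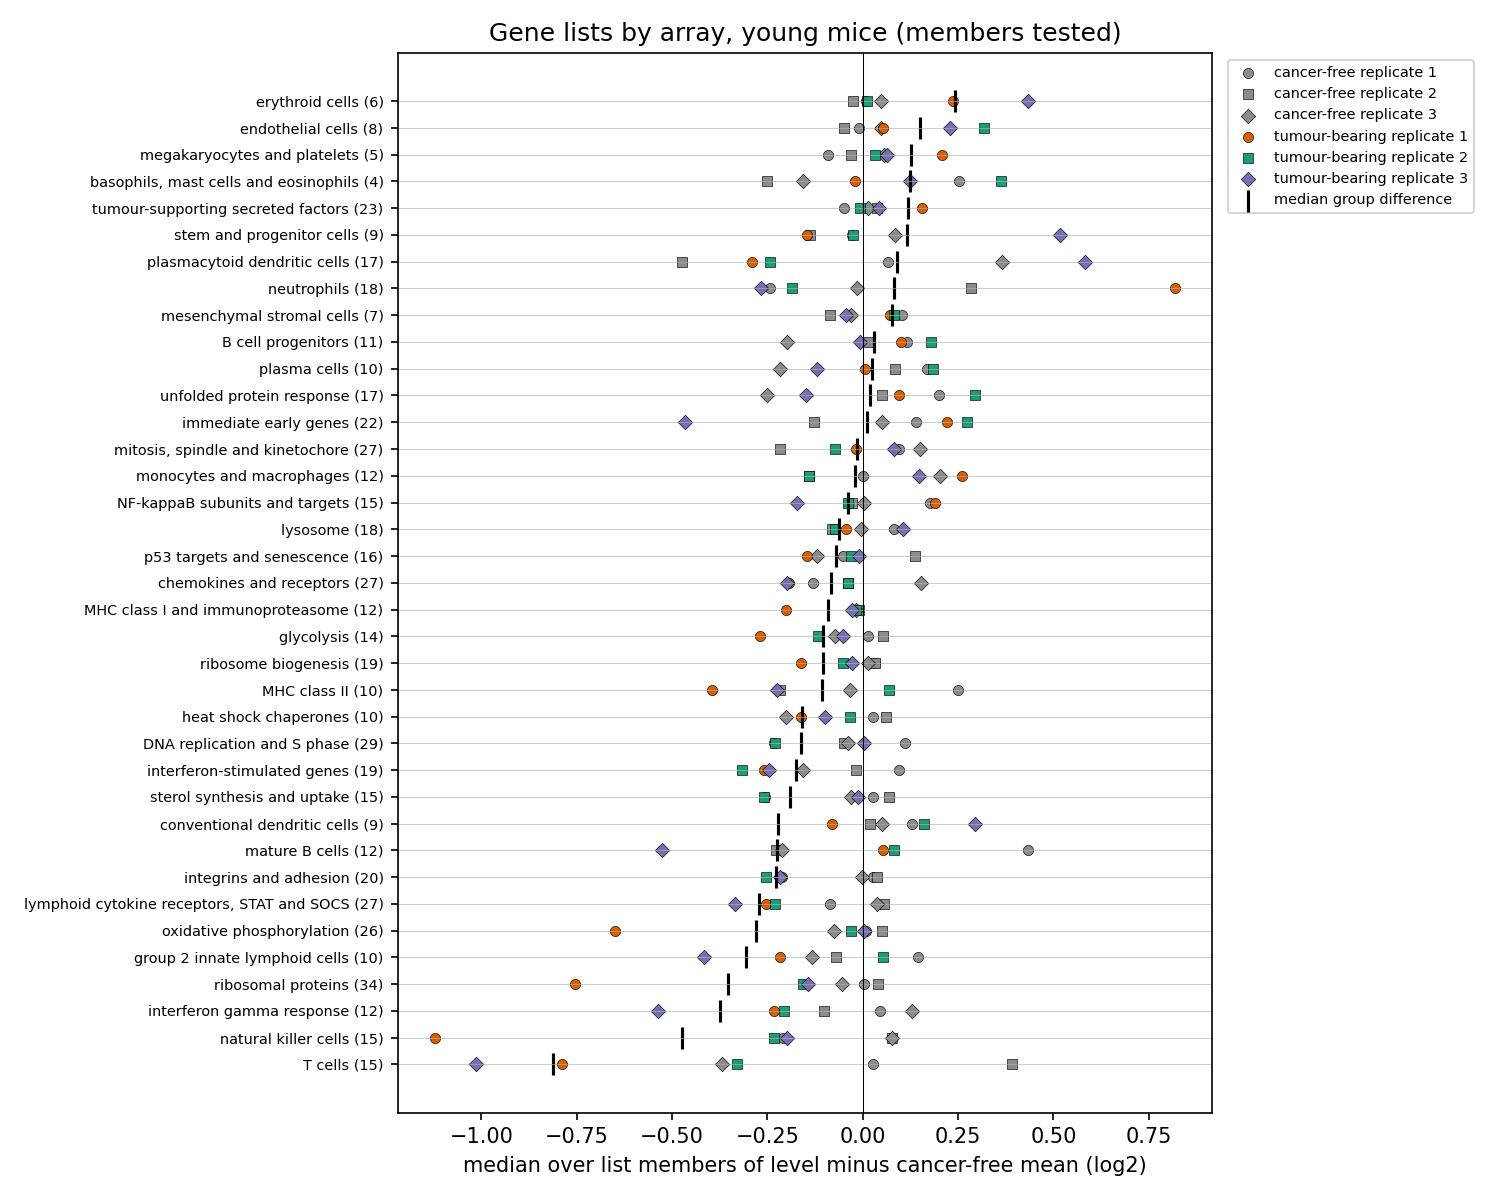
For each gene list (members tested in brackets), the median over its members of the level minus the cancer-free mean on each of the 6 young arrays (horizontal axis, log2; grey points cancer-free, coloured points tumour-bearing), with a black bar for the median of the group differences. T cell markers lie lowest, at -0.81, and tumour-bearing replicate 1 (orange) stands apart from replicates 2 and 3 for ribosomal proteins, oxidative phosphorylation and natural killer cells.

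Secreted factors that can support tumours had 15 of 23 genes higher and a median of 0.12, or 0.059 and 0.054 without tumour-bearing replicate 1 or 3. Il10, an inhibitory cytokine, read 5.86, 6.23 and 5.21 in cancer-free mice and 7.65, 8.36 and 5.69 in tumour-bearing mice. It was the 1 member with an unadjusted p under 0.05, beside 2.10% of all genes higher. Its difference was 1.46 (SE 0.62, limma adjusted p = 0.886). The difference was 0.90 without tumour-bearing replicate 2 and 2.23 without replicate 3, which lay within the cancer-free range. Grn, the secreted growth factor granulin, read 10.52, 10.55 and 10.85 against 11.47, 10.58 and 10.81. Only tumour-bearing replicate 1 stood above the cancer-free range, and the difference was 0.32 (SE 0.24), or 0.059 without that array and 0.51 without tumour-bearing replicate 2, beside 0.67 (SE 0.22) in old mice. Il5ra, the interleukin 5 receptor of eosinophils and B-1 cells, differed by 1.41 (SE 0.53) in young mice, or 0.94 without tumour-bearing replicate 2, and by 1.15 (SE 0.48) in old mice. Nfkbia, the inhibitor of NF-kappaB and itself one of its targets, read 8.95, 8.74 and 8.50 against 9.60, 9.34 and 9.07, with no overlap and a difference of 0.60 (SE 0.21). Its list had 6 higher and 9 lower. Pmaip1, the p53 target NOXA, differed by 1.22 (SE 0.48), or 0.53 without tumour-bearing replicate 1, in which it was at 7.34 against 4.30 to 5.57 elsewhere. The list of p53 targets and senescence had 7 higher and 9 lower, with a median of -0.07.

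Ribosomal protein genes, which supply the protein part of the ribosome, had 31 of 34 lower and 3 higher in tumour-bearing mice, with a median of -0.35. At an unadjusted p under 0.05 in limma, 4 were lower and 0 higher, beside 3.30% and 2.10% of all genes. For 12 of the 34 all tumour-bearing values lay below all cancer-free values, against 7.37% of all genes. Rplp0, of the ribosomal stalk, read 9.14, 9.36 and 8.83 against 7.50, 8.30 and 8.62. Its difference was -0.97 (SE 0.33, limma adjusted p = 0.886), or -0.60 by the mean of its probes. Rpsa read 10.59, 10.61 and 10.48 against 9.05, 10.12 and 10.37, a difference of -0.71 (SE 0.28), or -0.31 without tumour-bearing replicate 1. Rps3 differed by -0.43 (SE 0.20), or -0.22 without that array, and Rpl37 by -0.45 (SE 0.16). The list's median was -0.75 in tumour-bearing replicate 1, -0.16 in replicate 2 and -0.14 in replicate 3, and the median difference was -0.12 with 1 gene at an unadjusted p under 0.05 when replicate 1 was left out. Leaving out replicate 2 gave 14 such genes, leaving out replicate 3 gave 11, and leaving out cancer-free replicate 1 or 2 gave 2. Of the 34 genes, 22 were in the brightest quartile and 4 in the dimmest, and cyclic loess gave -0.27. In old mice the median was 0.035. Ribosomal protein genes have many near-identical copies in the genome, which probes may not separate.

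Oxidative phosphorylation, the mitochondrial respiratory chain, had 21 of 26 subunit genes lower, with a median of -0.28 and 0 at an unadjusted p under 0.05. Tumour-bearing replicate 1 stood apart, at -0.65 against -0.03 and 0.00 in replicates 2 and 3. Without it the median was -0.021, with 12 higher and 14 lower. Ndufa2, a subunit of complex I, read 9.19, 9.70 and 8.94 against 7.002, 9.152 and 9.001. The glycolysis list had 12 of 14 lower and a median of -0.10. At an unadjusted p under 0.05 in limma, 2 genes were lower and 0 higher, beside 3.30% and 2.10% of all genes. The median was -0.16 without tumour-bearing replicate 3 and -0.067 with cyclic loess. Tpi1, triose phosphate isomerase, read 8.08, 7.65 and 7.80 against 7.16, 7.16 and 7.43, with no overlap and a difference of -0.59 (SE 0.19), beside 0.31 (SE 0.17) in old mice. Slc2a3, a glucose transporter, differed by -0.64 (SE 0.29), or -0.39 without cancer-free replicate 2.

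Among genes of cell division in young mice, the mitosis list had no shared direction, while DNA replication genes were more often lower than higher. The mitosis list was 13 higher and 14 lower with a median of -0.015, which turned to 0.089 with cyclic loess and ran from -0.096 to 0.096 without 1 array. In old mice it was 2 higher and 25 lower with a median of -0.41. Cenpa, the histone variant of centromeres, read 6.22, 6.44 and 6.68 against 5.35, 5.67 and 5.63 in young mice. Its groups did not overlap and the difference was -0.90 (SE 0.29), beside 0.24 (SE 0.26) in old mice. DNA replication genes were 10 higher and 19 lower with a median of -0.16. It was -0.099 without tumour-bearing replicate 2, -0.10 without cancer-free replicate 1 and -0.25 without tumour-bearing replicate 3. Among them, Cdc45 of the replicative helicase differed by 0.89 (SE 0.40), while thymidylate synthase Tyms and the ribonucleotide reductase chain Rrm1 differed by -0.84 (SE 0.38) and -0.71 (SE 0.32). Without tumour-bearing replicate 1 these became 0.56, -0.49 and -0.47, and without tumour-bearing replicate 2 Cdc45 became 1.45. Immediate early genes, the first to respond to stimulation, were 11 higher and 11 lower with a median of 0.010, which turned to -0.038 with each array centred on its median and to -0.22 without cancer-free replicate 2, beside 1 higher and 21 lower with a median of -0.42 in old mice. The difference between the ages was not tested for these lists.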

How the data were processed

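Sorted marrow cells gave picograms of total RNA, which was amplified, biotin-labelled and hybridised to 1-colour arrays, per the labels' protocols. The deposited values are log2 intensities from RMA (oligo 1.32.0 and R 3.2.0 per the submitters' notes on processing). The sources used here do not give the array's genome build or say which arrays were normalised jointly. With limma 3.58.1 in R 4.3.3, a model of 4 group means was fitted to all 14 arrays (residual degrees of freedom 10, prior 3.86). Contrasts were adjusted by Benjamini-Hochberg at 0.05, with tests taken on both sides and checked on simulated data. Precision is limited by the number of arrays, and no batch or scan date is named in the sources used here.

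Named genes were the 10 higher and 10 lower with the smallest p, the 5 largest differences each way at an unadjusted p under 0.01 with both means above 3.88, up to 4 members per list with the smallest p, and Kit, Ptprc and Grn. Predicted genes were counted but not named. Genes, members and 37 lists were chosen with earlier results of these data known. Of the probes with 1 symbol, 23328 had an Entrez identifier in the RefSeq table. Promoters came from RefSeq (GRCm38.p6). Counts of list members without each array or under other scalings were added after seeing the data.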

Additional observations from a re-analysis of the deposited data

Results flagged for a closer look

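In 4 cases a gene named above had a value in the old mice that stands out. Rlf had opposite signs by age: the 3 young tumour-bearing values were above the 3 young cancer-free values, with a difference of 0.775 on the log2 scale, and the 3 old tumour-bearing values were below the 5 old cancer-free values, with a difference of -0.648. The young minus old difference was 1.423 (SE 0.280), with an adjusted p of 0.736 in limma over all genes.

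Among the 5 old cancer-free arrays, 1 lay far from the other 4 by Dixon's criterion for 3 of the 28 leading genes. Mapk11 was at 4.194 on old cancer-free replicate 1 and at 5.099 to 5.331 on the others. Ctrcos was at 4.697 on replicate 2 and at 5.032 to 5.162 on the others. Ehd3 was at 6.516 on replicate 4 and at 5.264 to 5.572 on the others. Chance alone marks about 1 in 20 groups in this way. The groups of 3 young arrays are too small for this criterion.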

How the results depend on the processing

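The young comparison had 0 genes past adjustment in limma with each of these changes: array weights, cyclic loess, centring on array medians, dropping or tightening the filter, averaging probes or testing all of them, a robust prior with a variance trend, only the groups compared in the fit, and each young array left out. The count at an unadjusted p under 0.05 was 745, and 567 to 1111 without 1 array; 353 of the 745 (47.4%) were shared without tumour-bearing replicate 1. Without a filter it was 1373 (804 higher, 569 lower) and with the stricter filter 336 (60 higher, 276 lower), on more and on fewer genes. Same-numbered replicates deviated together only weakly (r of 0.00648, 0.0667 and 0.0887 across genes); with the replicate number as a replicate block, 0 genes passed and 766 were under 0.05. The old comparison had 0 to 4 genes past adjustment when 1 old array was left out: leaving out tumour-bearing replicate 1 gave 4, cancer-free replicate 3 gave 3, cancer-free replicate 5 gave 1, and the others 0. The young minus old difference had 0 in each setting. Of 222 list medians without 1 array, 33 changed sign, as did 12 of 148 under other settings. Of the named genes, 11 of 1002 did without 1 array and 3 of 1626 under other settings. For a single gene, many of these settings could not change the sign. Another filter, the robust prior with a variance trend, only the groups compared and the replicate block leave its difference as it was. Most named genes were also picked by a small p in these same data, which makes a change of sign less likely.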

Other observations

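Lists not described above had medians within 0.25 log2 units of 0 in young mice and no member past adjustment in limma. Mature B cell genes were 4 higher and 8 lower with a median of -0.22, which was 0.017 without cancer-free replicate 1, -0.34 without cancer-free replicate 3 and -0.042 without tumour-bearing replicate 3. Cd22, an inhibitory receptor of B cells, differed by -0.71 (SE 0.36), or -0.47 without cancer-free replicate 1 and -0.43 without tumour-bearing replicate 3. B cell progenitor genes were 8 higher and 3 lower with a median of 0.029, and plasma cell genes 7 higher and 3 lower with a median of 0.025. Both medians turned negative with median centring, to -0.019 and -0.023, and without cancer-free replicate 3, to -0.097 and -0.083, or tumour-bearing replicate 2, to -0.031 and -0.023. Without cancer-free replicate 1 they were 0.194 and 0.089. In old mice, plasma cell genes were 10 higher and 0 lower with a median of 0.39. MHC class II genes, which present antigen to helper T cells, were 2 higher and 8 lower with a median of -0.11, or 0.014 without cancer-free replicate 1, -0.21 without cancer-free replicate 2 and -0.26 without tumour-bearing replicate 2. Genes of sterol synthesis and uptake were 3 higher and 12 lower with a median of -0.19, or -0.11 without cancer-free replicate 1 and -0.31 without cancer-free replicate 3, beside 0.22 in old mice.

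Most markers of non-blood cells were dim. Of 7 mesenchymal stromal genes tested, 4 were in the dimmest quartile, as were 6 of 8 endothelial genes, with medians of 0.076 and 0.15. These were -0.005 for the stromal genes without cancer-free replicate 2, and -0.003 for the endothelial genes without tumour-bearing replicate 3 and 0.092 without cancer-free replicate 1. Pdgfrb, a receptor of stromal cells and pericytes, read 3.81, 3.88 and 3.53 in cancer-free mice and 3.88, 4.31 and 4.42 in tumour-bearing mice, near the table's median throughout. Thy1, also on the stromal list, was bright, at 10.38 to 10.49 in cancer-free mice. It had the list's lowest difference, -0.39 (SE 0.22), with all tumour-bearing values below all cancer-free values. Erythroid markers had a median of 0.24 over 6 genes, or 0.076 without tumour-bearing replicate 3. Megakaryocyte markers had one of 0.13 over 5 genes, or 0.070 without tumour-bearing replicate 1 and 0.049 with cyclic loess. The dimmest quartile of all genes had a median of 0.100.

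Nop16, a nucleolar protein of ribosome assembly, read 6.43, 6.05 and 6.41 against 5.33, 5.30 and 6.30 in young mice. Its difference was -0.66 (SE 0.32) in young mice, or -0.99 without tumour-bearing replicate 3, and 1.43 in old mice, and the difference between the ages had an unadjusted p of 0.000287 and an adjusted p of 0.736 in limma. The ribosome biogenesis list had 7 higher and 12 lower with a median of -0.11, or 0.013 with cyclic loess, -0.19 without cancer-free replicate 1 and -0.055 without cancer-free replicate 3.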
